A study of Mus musculus with 28 samples.

Results

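The 10 genes described here are Foxp3, the interleukin-2 receptor chain genes Il2ra, Il2rb and Il2rg, and 6 genes used to identify regulatory T cells (Tregs): Ikzf2, Ikzf4, Nrp1, Gpr83, Izumo1r and Capg. They were chosen by gene symbol from a deposited table of 13103 genes and all 10 were found. All 10 were also among the 12512 genes that passed the filter on low values. The cells were Tregs of Foxp3-GFP mice, in which green fluorescent protein (GFP) marks cells that use the Foxp3 locus; how the reporter was built is not stated in the labels. Every mouse carried an intradermal graft of 500000 B16 cells, a mouse melanoma line, and was taken at 7 to 10 days. GFP-positive cells stained for CD45, CD3 and CD4 were sorted by surface OX40, which belongs to the TNF receptors and costimulates T cells. The 4 groups were tumor OX40plus (4 mice), tumor OX40minus (4 mice), spleen OX40plus (3 mice) and spleen OX40minus (3 mice). No untumored mice and no GFP-negative T cells were analysed here, so a level in Tregs is set against other Tregs only. The labels state neither age nor sex of the mice.

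Foxp3 is the transcription factor that fixes the Treg fate, and its loss causes fatal autoimmunity in mice and humans. Tregs make little interleukin-2 themselves and depend on that of other T cells. The alpha chain (CD25, from Il2ra) raises the affinity for the cytokine, while the beta chain (CD122, from Il2rb) and the common gamma chain (CD132, from Il2rg) carry the signal to the kinases JAK1 and JAK3 and to STAT5, which acts on Foxp3 and Il2ra. Ikzf2 and Ikzf4 encode the zinc finger proteins Helios and Eos, Nrp1 the semaphorin receptor neuropilin-1, Gpr83 a G protein-coupled receptor, Izumo1r the protein called folate receptor 4 and Capg an actin-capping protein of the gelsolin family. Helios and neuropilin-1 have served as markers of Tregs made in the thymus.

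The 250 bases before the annotated start are shown for Foxp3 (the second of its 2 promoters), Il2ra, Il2rg and Nrp1. Il2ra and Il2rg differed in opposite directions between the gates of tumor Tregs, and of the 10 genes Nrp1 differed most between them. The windows are from RefSeq on GRCm38.p6. RefSeq promoters were matched for 7 of the 10 genes, 8 promoters in all. Capitals mark matches on either strand to 4 motifs searched by their letters: forkhead TGTTTAC, RUNX TGTGGT, STAT TTCNNNGAA and ETS ACTTCC.
Foxp3 promoter, chrX:7580233-7580482, plus strand: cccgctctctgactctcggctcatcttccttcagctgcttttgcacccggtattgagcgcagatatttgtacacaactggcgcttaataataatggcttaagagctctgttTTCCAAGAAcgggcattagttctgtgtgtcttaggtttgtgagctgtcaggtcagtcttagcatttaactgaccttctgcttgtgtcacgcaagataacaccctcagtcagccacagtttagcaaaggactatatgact
Il2ra promoter, chr2:11642542-11642791, plus strand: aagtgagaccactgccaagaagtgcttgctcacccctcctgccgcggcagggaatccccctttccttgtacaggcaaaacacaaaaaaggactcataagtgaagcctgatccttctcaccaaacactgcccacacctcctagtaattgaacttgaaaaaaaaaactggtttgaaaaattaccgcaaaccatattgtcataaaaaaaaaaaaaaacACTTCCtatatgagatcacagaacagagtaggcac
Il2rg promoter, chrX:101268256-101268505, minus strand: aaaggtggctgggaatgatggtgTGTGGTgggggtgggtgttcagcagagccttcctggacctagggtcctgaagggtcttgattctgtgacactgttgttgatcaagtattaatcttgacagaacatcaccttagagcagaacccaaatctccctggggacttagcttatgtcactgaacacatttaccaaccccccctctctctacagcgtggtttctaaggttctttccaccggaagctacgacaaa
Nrp1 promoter, chr8:128358823-128359072, plus strand: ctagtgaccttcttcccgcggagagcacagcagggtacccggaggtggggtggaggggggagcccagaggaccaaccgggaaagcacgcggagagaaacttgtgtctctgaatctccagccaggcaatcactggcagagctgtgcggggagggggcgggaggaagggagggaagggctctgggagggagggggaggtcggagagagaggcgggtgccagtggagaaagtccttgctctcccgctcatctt

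This Foxp3 window lies before the second of the gene's 2 RefSeq promoters and held 1 STAT match, TTCCAAGAA, whose first base is 139 bases before the start. The Il2ra window held 1 ETS match, 35 bases before the start, and the Il2rg window 1 RUNX match, 227 bases before it. The Nrp1 window held no match to any of the 4 motifs, nor did the window of Gpr83 or that of the first Foxp3 promoter. That first Foxp3 window, chrX:7579426-7579675, lies upstream of the one shown, and 109 of its bases are also annotated as Foxp3 exon. Izumo1r had 1 RUNX match and Capg 1 ETS match. Of the bases in these windows, 182 for Izumo1r and 105 for Capg are also annotated as exon of the same gene. Among 32841 RefSeq promoters the same windows held a forkhead match in 3.17%, a RUNX match in 14.05%, a STAT match in 7.02% and an ETS match in 19.7%. The matches describe letters, not bound sites.

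RNA was sequenced from 28 libraries, 2 for each mouse and gate. The 2 libraries of a pair differed by little more than sampling noise over all genes (median chi-square per gene 0.495 to 0.578, against 0.455 from sampling alone) and were counted as 1 sample. Samples held 22.4 M to 29.7 M estimated counts, so 3 counts corresponded to 0.104 to 0.130 CPM (counts per library total, scaled as the authors did). Nothing in the labels says that mice were pooled. In the spleen OX40plus group, mouse 3 was the most distant, with a median chi-square per gene of 6.98 and 9.46 to mice 1 and 2, which gave 2.15 between them. In tumor OX40plus Tregs the widest distance was 22.3, between mice 1 and 4. Tnfrsf4, which encodes OX40, followed the sort within each tissue, at 3357 ± 203 CPM in tumor OX40plus, 1950 ± 152 in tumor OX40minus, 704 ± 111 in spleen OX40plus and 253 ± 40.9 in spleen OX40minus Tregs (SD, n = 4, 4, 3 and 3). Tumor OX40minus Tregs held more of it than spleen OX40plus Tregs, so gates of the same name were not alike across tissues in this transcript. The 5 T cell and CD4 markers in the table summed to 3102 to 3247, 3373 to 3543, 2331 to 2788 and 2137 to 2575 CPM in the 4 groups in the same order.

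Each difference below is a log2 fold change with its standard error (SE) from limma, fitted to log2 CPM over all 12512 genes, and called means an adjusted p under 0.05 by the Benjamini-Hochberg method over those genes. Between the gates of tumor Tregs 4 of the 10 genes were called, a share close to the 38.5% of all tested genes that were called. Il2ra rose in OX40plus Tregs and Il2rg, Nrp1 and Gpr83 fell, with a median of -0.08 over the 10 genes and -0.08 over all genes. Between the gates of spleen Tregs 2 of 10 were called, against 7.98% of all genes, and both, Izumo1r and Capg, rose. Between tumor and spleen 8 of 10 were called in OX40plus Tregs, against 64.5% of all genes, and 5 of 10 in OX40minus Tregs, against 59.0%. The samples are bulk RNA of sorted cells, so fewer cells of a type and less RNA per cell cannot be told apart. The comparisons share samples, so their calls are not independent of each other. The shares of all genes, 38.5% and 7.98% between gates and 64.5% and 59.0% between tissues, apply to each list of genes counted below.

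**Figure D1:**
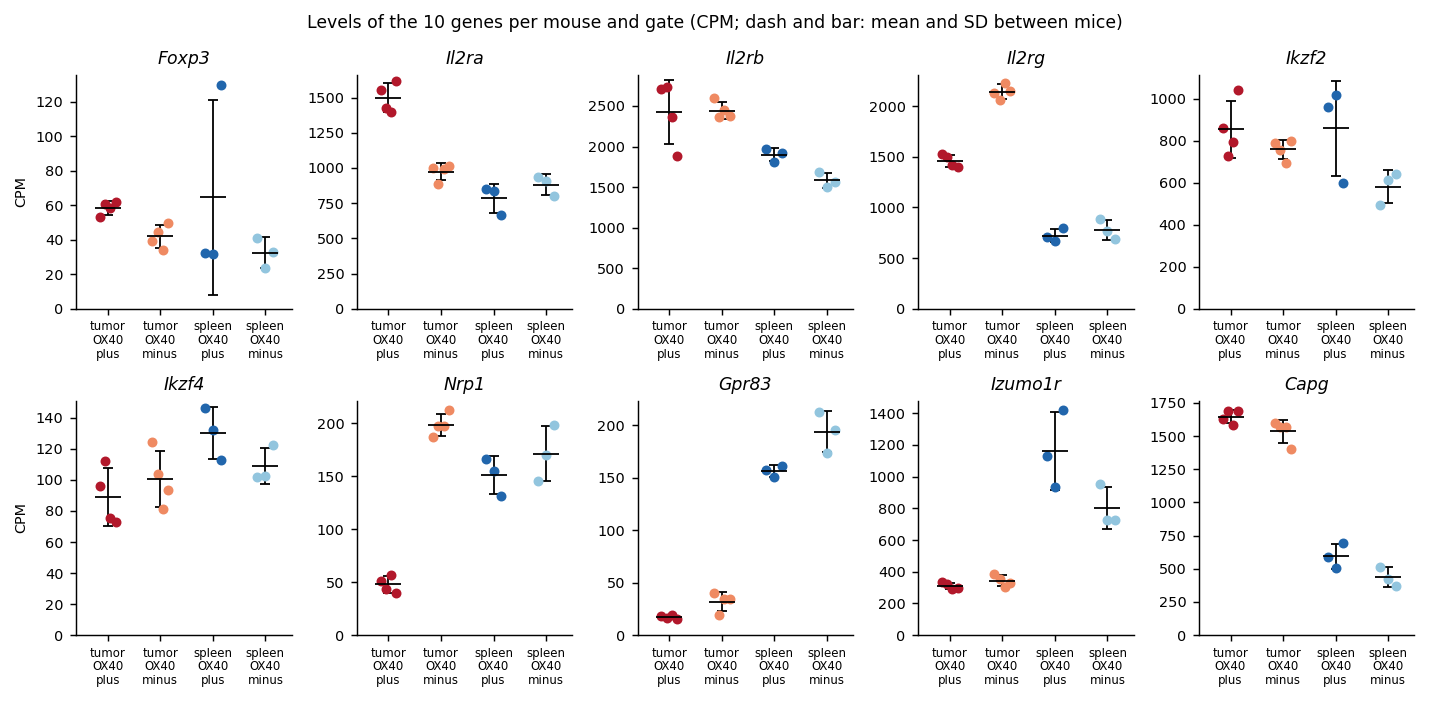
CPM (vertical axes, starting at 0) of the 10 genes in each mouse and gate, as points, with the mean and SD of each group as dash and bar. Nrp1 sits at 39.4 to 57.2 CPM in the 4 tumor OX40plus samples and above 130 CPM in the other 10, while Gpr83 and Izumo1r are low in both tumor groups.

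Foxp3 transcripts themselves were not called in any comparison. Foxp3 (ENSMUSG00000039521, chromosome X, 7573644 to 7595245, plus strand, GENCODE M21 on mm10) was at 52.9, 60.7, 58.5 and 62.0 CPM in tumor OX40plus mice 1 to 4, against 39.3, 44.2, 34.3 and 49.7 CPM in tumor OX40minus. The tumor groups did not overlap, but the difference of 0.51 ± 0.33 SE was not called (adjusted p = 0.249). Fitted with the tumor groups alone, which takes no spread from spleens, the same difference was called (adjusted p = 0.0123). In spleens Foxp3 was at 32.1, 31.8 and 129.7 CPM in OX40plus mice 1 to 3, against 41.0, 23.3 and 33.2 CPM in OX40minus (0.68 ± 0.38 SE, adjusted p = 0.43). The high spleen mean was 1 sample, mouse 3, and the other OX40plus samples lay within the range of OX40minus.

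Between tissues Foxp3 averaged 58.5 ± 4.01 CPM in tumor and 64.5 ± 56.5 CPM in spleen OX40plus Tregs (SD, n = 4 and 3), a difference of 0.22 ± 0.36 SE on the log2 scale (adjusted p = 0.604). The means and the log2 difference have opposite signs because mouse 3 weighs more in a mean of CPM. Without spleen OX40plus mouse 3 the difference was 0.89 and was called (adjusted p = 0.00138), and without mouse 1 or mouse 2 of that group it was -0.11. In OX40minus Tregs Foxp3 averaged 41.9 ± 6.61 CPM in tumor and 32.5 ± 8.85 CPM in spleen (0.39 ± 0.36 SE, adjusted p = 0.36).

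The 2 libraries of 1 mouse and gate gave different Foxp3 values, which was seen for none of the other 9 genes to that degree. In spleen OX40plus mouse 3 they held 162 and 97.2 CPM (2061 and 1227 estimated counts), in spleen OX40minus mouse 2 30.6 and 16.1 CPM, and in tumor OX40minus mouse 1 28.5 and 50.1 CPM. The 4 tumor OX40plus pairs held 47.2 and 58.7, 65.1 and 56.2, 63.9 and 53.0, and 59.1 and 64.9 CPM. The closest pair was that of spleen OX40minus mouse 3, at 33.3 and 33.0 CPM. For Foxp3 the median chi-square of a pair was 15.8, and 11 of the 14 pairs lay above 3.84, the value that sampling alone passes in 5% of pairs. The other 9 genes had medians of 0.123 to 0.977, with 0 or 1 of 14 pairs above 3.84 each. Of 9156 genes with enough counts, 4 had a higher median than Foxp3: COX3, Morc3, Osbpl7 and Sipa1, named after their values were seen. The median gap between the 2 libraries was 0.31 on the log2 scale for Foxp3, against 0.005 to 0.053 for the other genes.

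**Figure D2:**
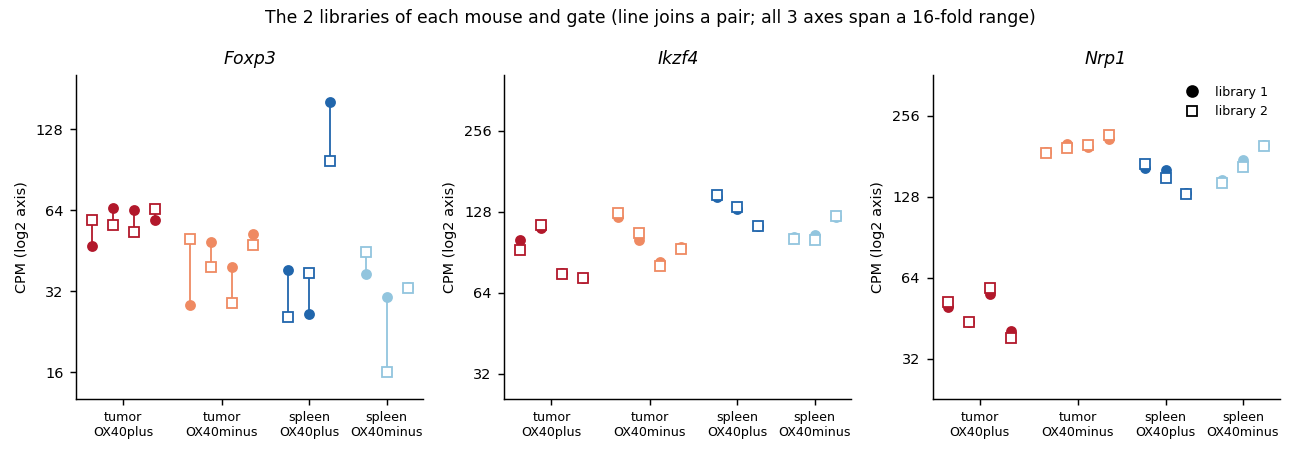
CPM of the 2 libraries of each mouse and gate for Foxp3, Ikzf4 and Nrp1 (vertical log2 axes that each span a 16-fold range; filled circle and open square are the libraries, joined by a line). The Foxp3 pairs lie apart by up to 0.92 on the log2 scale, while the largest gap of Ikzf4 is 0.12 and that of Nrp1 0.099.

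The annotation lists 10 Foxp3 transcripts with 4577 exon bases, and other genes share part of them. Flicr, a noncoding gene on the same strand, shares 853 of these bases (18.6%). On the opposite strand Ccdc22 shares 590 bases (12.9%), Gm36995 373 (8.15%) and Ppp1r3f 266 (5.81%). The sources used here do not say whether the counting used strand, so Foxp3 values are uncertain where these genes are transcribed. Of the neighbours, Ccdc22 fell in tumor OX40plus Tregs (22.8 ± 3.80 against 30.8 ± 3.98 CPM in tumor OX40minus, -0.44 ± 0.15 SE, adjusted p = 0.0264, n = 4 each). Plp2, a membrane protein gene nearby, rose (236 ± 14.9 against 151 ± 9.20 CPM, 0.65 ± 0.10 SE, adjusted p = 0.00012). The part of these overlaps in the gap between libraries was not tested.

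Among 28 tested partners and regulators of Foxp3, 8 rose and 14 fell in tumor OX40plus against tumor OX40minus Tregs (median -0.26), and 7 rose and 2 fell between the gates in spleens (median -0.01). Calls over all genes were 38.5% in tumors and 7.98% in spleens. Smad3, a signal carrier of TGF-beta, fell in the tumor (-2.09 ± 0.18 SE, adjusted p = 5.77e-07). Ezh2 (0.97 ± 0.09) and Eed (0.64 ± 0.08), subunits of the repressive Polycomb complex PRC2, rose there (adjusted p = 1.02e-06 and 1.8e-05). In spleens Satb1 (-0.96 ± 0.12) and Foxp1 (-0.74 ± 0.10) fell and Uhrf1, a maintenance factor of DNA methylation, rose (1.16 ± 0.18, adjusted p = 0.000635). Ezh2 rose in spleens too (0.66 ± 0.10, adjusted p = 0.000694), and Eed was not called there (adjusted p = 0.803). Foxp1 also fell in the tumor (-0.64 ± 0.085, adjusted p = 2.69e-05). Uhrf1 was likewise higher in tumor OX40plus, at 285 ± 40.1 against 133 ± 25.7 CPM in tumor OX40minus. Satb1 went the other way in the tumor, at 300 ± 32.1 CPM in OX40plus and 175 ± 13.6 in OX40minus. Against spleen OX40plus Tregs, tumor OX40plus Tregs had lower Usp7, a deubiquitinase of Foxp3 protein, at 47.9 ± 6.31 against 227 ± 13.1 CPM (-2.25 ± 0.11, adjusted p = 7.25e-11). In that comparison 8 of the 28 rose and 15 fell, and between OX40minus Tregs of tumor and spleen 7 rose and 10 fell.

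Between the gates of tumor Tregs Il2ra rose, Il2rg fell and Il2rb was not called. Il2ra (ENSMUSG00000026770, chromosome 2, 11642807 to 11693193, plus strand) was at 1552, 1427, 1399 and 1616 CPM in tumor OX40plus mice 1 to 4, against 1003, 884, 993 and 1013 CPM in tumor OX40minus. Every tumor OX40plus sample lay above every tumor OX40minus sample, and the gene rose 1.54-fold (0.62 ± 0.09 SE, adjusted p = 9.33e-05). In spleens it was at 850, 838 and 663 CPM in OX40plus, against 939, 906 and 798 CPM in OX40minus, overlapping groups whose difference of -0.17 ± 0.11 SE was not called (adjusted p = 0.509). The tumor difference exceeded the spleen difference by 0.80 ± 0.14 SE (interaction in limma, adjusted p = 0.00255). In OX40plus Tregs Il2ra was 1.92-fold higher in tumor than in spleen (0.94 ± 0.10, adjusted p = 6.64e-07), while in OX40minus Tregs the tissues differed by 0.15 ± 0.10 (adjusted p = 0.237). Its order of mean level was tumor OX40plus, tumor OX40minus, spleen OX40minus and spleen OX40plus, and only the first stood clear of its neighbour.

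Il2rg (ENSMUSG00000031304, chromosome X, 101264378 to 101268255, minus strand) had the opposite gate difference in the tumor. It was at 1523, 1502, 1414 and 1396 CPM in tumor OX40plus mice, against 2131, 2057, 2234 and 2150 CPM in tumor OX40minus. These groups did not overlap, and the gene fell 1.47-fold (-0.55 ± 0.09 SE, adjusted p = 0.000122). In spleens it was at 709, 667 and 793 CPM in OX40plus, against 886, 766 and 690 CPM in OX40minus, with overlap (-0.11 ± 0.10 SE, adjusted p = 0.757). The gate difference in the tumor lay below that in spleens by 0.45 ± 0.13 SE (interaction -0.45, adjusted p = 0.0414), a call lost when the mouse was a block in the fit (adjusted p = 0.115) without the mean-variance trend (adjusted p = 0.069), and without each of 9 single samples (adjusted p = 0.0551 to 0.101): tumor OX40plus mouse 3, each tumor OX40minus mouse, spleen OX40plus mice 1 and 3, and spleen OX40minus mice 2 and 3. Tumor Tregs held more Il2rg than spleen Tregs in both gates, by 1.02 ± 0.09 SE in OX40plus (adjusted p = 1.03e-07) and by 1.46 ± 0.09 in OX40minus (adjusted p = 2.09e-09). A gene model on the same strand, Gm20489, shares 728 bases (30.5%) of its exons, so its counts are uncertain to that extent.

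Il2rb (ENSMUSG00000068227, chromosome 15, 78479256 to 78495271, minus strand) was called between tissues in both gates and between the gates in neither tissue. It was at 2713, 2730, 2370 and 1881 CPM in tumor OX40plus mice, with mouse 4 lowest, against 2593, 2360, 2448 and 2374 CPM in tumor OX40minus (-0.03 ± 0.11 SE, adjusted p = 0.876). In spleens OX40plus samples had 1964, 1807 and 1923 CPM, all above the OX40minus samples with 1689, 1497 and 1558 CPM, but 0.26 ± 0.13 SE was not called (adjusted p = 0.294). Tumor Tregs exceeded spleen Tregs by 0.63 ± 0.12 SE in OX40minus (adjusted p = 0.000242). In OX40plus the difference was 0.34 ± 0.12 SE (adjusted p = 0.0193), and it was no longer called with the OX40plus groups alone (adjusted p = 0.0724), with library size as the only scaling (0.24, adjusted p = 0.0745), or without tumor OX40plus mouse 1 (adjusted p = 0.0593), tumor OX40plus mouse 2 (adjusted p = 0.0618) or spleen OX40plus mouse 2 (adjusted p = 0.0678).

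Ratios between the chains within a sample restate the differences above on 1 scale. None of the 12 comparisons of them passed adjustment, and none could have. With 3 or 4 samples a group, the exact permutation test cannot give p-values small enough for that, so nothing follows from it. The log2 ratio of Il2ra to Il2rg CPM was 0.03, -0.08, -0.02 and 0.21 in tumor OX40plus mice, against -1.09, -1.22, -1.17 and -1.08 in tumor OX40minus. The groups lay 1.18 apart (exact two-sided permutation test of 4 against 4 samples, p = 0.0286, the smallest it can give, 0.0856 after Benjamini-Hochberg adjustment over the 12). Both gates came from the same numbered mice, and an exact sign-flip test over the 4 pairs, added after the data were seen, gave p = 0.125, the smallest that 4 pairs allow, for each of the 3 ratios. In spleens the means were 0.11 ± 0.32 in OX40plus and 0.18 ± 0.08 in OX40minus (SD, n = 3 each; exact permutation test, p = 1, where 3 against 3 samples cannot go below 0.1). Il2ra to Il2rb averaged -0.68 ± 0.32 in tumor OX40plus and -1.33 ± 0.08 in tumor OX40minus, a difference of 0.65 in which tumor OX40plus mouse 4, at -0.22, was highest (exact permutation test, p = 0.0286, adjusted 0.0856). In spleens the same ratio was -1.28 ± 0.22 in OX40plus and -0.85 ± 0.12 in OX40minus, without overlap (exact permutation test, p = 0.1, adjusted 0.12). The ratios are of CPM without length, so they do not show which chain was more abundant.

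**Figure D3:**
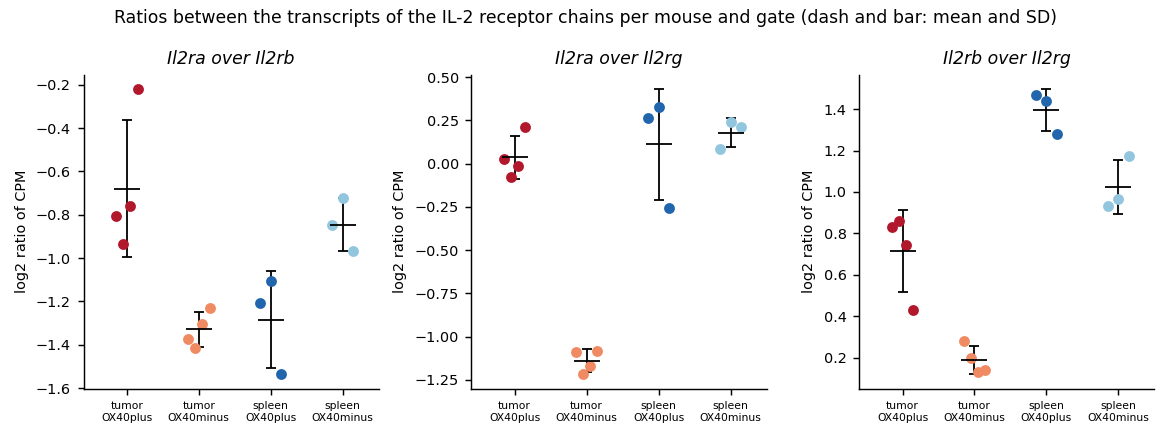
Log2 ratio of CPM between pairs of interleukin-2 receptor chains (vertical axes; the panels have different ranges) in each mouse and gate, with the mean and SD of each group as dash and bar. Il2ra over Il2rg averages -1.14 in tumor OX40minus, and 0.04, 0.11 and 0.18 in tumor OX40plus, spleen OX40plus and spleen OX40minus.

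Per kilobase of annotated exon, Il2rg (611 ± 26.5 CPM per kb) and Il2rb (565 ± 92.8) lay above Il2ra (262 ± 18.0) in tumor OX40plus Tregs, and Il2rb (369 ± 23.0) and Il2rg (327 ± 41.4) above Il2ra (154 ± 12.9) in spleen OX40minus Tregs. Foxp3 was far lower on this scale, at 12.8 ± 0.88 CPM per kb in tumor OX40plus Tregs, below Ikzf2 (73.7 ± 11.7) and near Ikzf4 (14.9 ± 3.14). Capg was highest of the 10 there, at 651 ± 20.4, close to Il2rg. Exon bases were counted over all annotated transcripts of a gene, not over those expressed, so this order of genes is approximate.

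Of the JAK-STAT5 signal and feedback genes, 15 were tested, and 2 rose and 10 fell in tumor OX40plus against tumor OX40minus Tregs (median -0.50). The share of all genes called there was 38.5%. Stat5b, which carries the interleukin-2 signal, was at 178 ± 25.0 CPM in tumor OX40plus and 368 ± 19.6 in tumor OX40minus (-1.06 ± 0.09 SE, adjusted p = 3.96e-07). Socs3, a feedback inhibitor of cytokine receptors, fell in the tumor (-1.53 ± 0.14, adjusted p = 9.38e-07) and in spleens (-0.97 ± 0.16, adjusted p = 0.00121). In spleens 1 gene of the list rose and 4 fell, where 7.98% of all genes were called. The survival gene Bcl2 was at 12.3 ± 1.64 CPM in tumor OX40plus and 36.4 ± 8.07 in tumor OX40minus Tregs, and at 142.5 ± 15.8 in spleen OX40plus and 232 ± 22.7 in spleen OX40minus. It fell in tumor against spleen OX40plus Tregs (-3.54 ± 0.16, adjusted p = 2.32e-11). Bcl2l1, its relative, rose in that comparison, at 292 ± 33.9 in tumor OX40plus and 118 ± 9.87 CPM in spleen OX40plus (1.30 ± 0.11, adjusted p = 2.43e-08). Between tissues 5 of the 15 rose and 5 fell in OX40plus Tregs, and 7 rose and 4 fell in OX40minus.

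Of the cytokines of this family and the chains that pair with gamma-c or resemble such chains, 8 of 12 listed genes were tested, and 2 fell and none rose between the gates of tumor Tregs. In that comparison 38.5% of all genes were called. Il4ra, the interleukin-4 receptor chain, averaged 248 ± 47.1 CPM in tumor OX40plus and 493 ± 39.9 in tumor OX40minus (-1.01 ± 0.11 SE, adjusted p = 5.89e-06), and Il21r 387 ± 61.6 and 498 ± 34.7 CPM in the same order (-0.38 ± 0.10, adjusted p = 0.00773). In spleens none of the 8 was called between the gates. Il9r fell in tumor against spleen Tregs in both gates (-1.72 and -1.57), and Il15ra, which presents interleukin-15 to the beta and gamma chains, rose in both (0.50 ± 0.15, adjusted p = 0.0092 in OX40plus and 0.86 ± 0.15, adjusted p = 0.000142 in OX40minus).

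Nrp1 had the largest difference of the 10 genes between the gates of tumor Tregs. Nrp1 (ENSMUSG00000025810, chromosome 8, 128358604 to 128503363, plus strand) was at 50.8, 43.7, 57.2 and 39.4 CPM in tumor OX40plus mice, against 187, 198, 198 and 213 CPM in tumor OX40minus. The groups were far apart, and Nrp1 fell 4.2-fold (-2.07 ± 0.12 SE, adjusted p = 1.08e-08). In spleens it was at 167, 155 and 132 CPM in OX40plus, against 146, 170 and 198 CPM in OX40minus, with overlap and no call (-0.18 ± 0.14 SE, adjusted p = 0.659). The interaction was -1.89 ± 0.19 SE (adjusted p = 1.89e-05). Tumor OX40plus Tregs also lay below spleen OX40plus Tregs (-1.67 ± 0.13, adjusted p = 1.47e-08), while tumor and spleen OX40minus Tregs differed by 0.22 ± 0.13 (adjusted p = 0.155). Of the 4 groups tumor OX40plus thus stood alone, and the levels of the other 3, from 151 to 199 CPM on average, were not called different in the 2 comparisons made among them.

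Markers of other cell types, among them macrophages, dendritic cells and endothelial cells, which can carry neuropilin-1, moved with the gates as well. The 12 macrophage or monocyte markers in the table summed to 55.7 to 68.8 CPM in tumor OX40plus and 236 to 352 CPM in tumor OX40minus samples, with 10 of 12 called lower. They summed to 85.7 to 205 CPM in spleen OX40plus and 806 to 1016 CPM in spleen OX40minus, again with 10 of 12 called lower, where Nrp1 was not called. Dendritic cell markers summed to 44.5 to 79.6 CPM in tumor OX40plus, 160 to 228 in tumor OX40minus, 14.93 to 20.05 in spleen OX40plus and 45.0 to 51.8 in spleen OX40minus, with 5 and 1 of 7 called lower in OX40plus in tumors and spleens. Endothelial markers summed to 63.8 to 92.1, 126 to 196, 136 to 152 and 222 to 226 CPM in the same groups, with 1 of 5 tested called lower in each tissue. Pecam1 made up most of each endothelial sum, averaging 70.7 ± 8.5, 137 ± 13.7, 141 ± 7.2 and 215 ± 1.6 CPM. Cdh5, Kdr, Tek, Emcn and Eng averaged 1.22, 11.7, 0.75, 1.14 and 5.68 CPM in tumor OX40minus. Neutrophil markers summed to 20.05 to 46.6, 190.4 to 267, 33.2 to 35.6 and 56.0 to 76.6 CPM, with 3 and 1 of 6 called lower. In both tumor groups most of that sum was Mmp9, at 26.6 ± 12.0 CPM in OX40plus and 213 ± 32.3 in OX40minus. S100a8, S100a9, Ly6g, Csf3r and Cxcr2 averaged 0.60, 0.44, 0.27, 3.4 and 1.7 CPM in tumor OX40minus. NK cell markers summed to 917 to 1033, 337 to 443, 52.8 to 74.2 and 42.0 to 55.3 CPM, with 5 of 8 called lower and 1 higher in tumor OX40plus. The higher one, Nkg7, which cytotoxic T cells also express, averaged 956 ± 52.1 CPM in tumor OX40plus and 375 ± 54.7 in tumor OX40minus and made up most of the sum. Of 5 fibroblast markers 1 was called lower in tumor OX40plus. Eomes, of the NK list, had 0 counts in all 4 tumor OX40plus samples. The part of these cells in the Nrp1 difference was not tested.

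**Figure D4:**
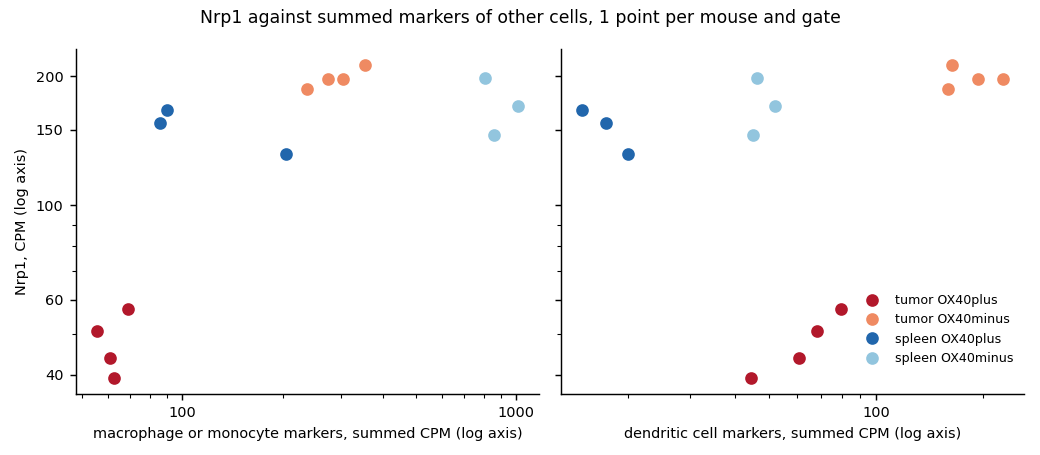
Nrp1 CPM (vertical log axis) against the summed CPM of macrophage or monocyte markers (left) and of dendritic cell markers (right, horizontal log axes), 1 point for each mouse and gate. Spleen OX40plus samples with 85.7, 90.1 and 205 CPM of macrophage markers hold 155, 167 and 132 CPM of Nrp1. Tumor OX40plus samples with 55.7 to 68.8 CPM of these markers hold 39.4 to 57.2 CPM of Nrp1.

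Neuropilin partners did not all follow Nrp1. Of 16 tested neuropilins, semaphorins and plexins, Nrp1 included, 3 rose and 7 fell in tumor OX40plus against tumor OX40minus Tregs (median -0.60), and 1 rose and 3 fell between the gates in spleens (median -0.04). For all genes the called shares were 38.5% and 7.98%. Sema4a, a ligand of neuropilin-1 on Tregs in mice, was at 28.4 ± 6.26 CPM in tumor OX40plus and 58.2 ± 7.24 in tumor OX40minus (-1.06 ± 0.16 SE, adjusted p = 0.000103). It fell in spleens too, at 13.96 ± 1.81 CPM in OX40plus and 29.6 ± 2.20 in OX40minus (-1.09 ± 0.19, adjusted p = 0.00154). Plxnd1, a semaphorin receptor, rose in OX40plus Tregs of both tissues (0.59 ± 0.14 and 0.94 ± 0.16). Between tissues 1 of the 16 rose and 10 fell in OX40plus, and 1 rose and 8 fell in OX40minus.

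The genes of Helios and Eos were not called between the gates. Ikzf2 (ENSMUSG00000025997, chromosome 1, 69531214 to 69687245, minus strand) was at 860, 726, 795 and 1043 CPM in tumor OX40plus mice, against 788, 759, 693 and 797 CPM in tumor OX40minus (0.16 ± 0.15 SE, adjusted p = 0.429). In spleens it was at 960, 1019 and 600 CPM in OX40plus, against 492, 613 and 641 CPM in OX40minus (0.53 ± 0.17, adjusted p = 0.0793). Spleen OX40plus mouse 3, at 600 CPM, was the sample that overlapped OX40minus, and without it the difference was 0.77 and was called (adjusted p = 0.0031), as was the interaction (-0.61, adjusted p = 0.0419). Tumor and spleen OX40plus Tregs differed by 0.02 ± 0.16 (adjusted p = 0.928). Between OX40minus Tregs of tumor and spleen all 4 tumor samples lay above all 3 spleen samples, by 0.39 ± 0.16 SE (adjusted p = 0.0502), a value that passed under 5 alternatives (adjusted p = 0.00538 to 0.0483).

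Ikzf4 (ENSMUSG00000002578, chromosome 10, 128630843 to 128645991, minus strand) averaged 89.2 ± 18.8 CPM in tumor OX40plus, 100.8 ± 18.1 in tumor OX40minus, 130.5 ± 16.7 in spleen OX40plus and 109 ± 11.8 in spleen OX40minus Tregs. Its call was between tissues in OX40plus Tregs, where the 4 tumor samples (72.7 to 112.5 CPM) lay below the 3 spleen samples (113 to 146 CPM; -0.56 ± 0.16 SE, adjusted p = 0.00603). The gap between the nearest samples, 112.5 and 113 CPM, was narrow. Of the 5 tested Ikaros genes, these 2 included, none was called between the gates in either tissue. Ikzf1, the Ikaros gene itself, fell in tumor against spleen Tregs, at 175 ± 10.2 against 406 ± 54.5 CPM in OX40plus (-1.20 ± 0.09, adjusted p = 9.02e-09) and 178 ± 8.20 against 494 ± 15.6 CPM in OX40minus (-1.48 ± 0.09, adjusted p = 1.21e-09).

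Gpr83 and Izumo1r fell in tumor against spleen Tregs of both gates, and the genes are neighbours. Gpr83 (ENSMUSG00000031932, chromosome 9, 14860210 to 14870789, plus strand) was at 18.0, 16.1, 19.2 and 14.9 CPM in tumor OX40plus mice and 39.9, 18.6, 34.7 and 34.5 CPM in tumor OX40minus, against 157, 151 and 161 CPM in spleen OX40plus and 212, 174 and 196 CPM in spleen OX40minus. All tumor samples lay far below all spleen samples. Gpr83 fell 9.22-fold in tumor OX40plus against spleen OX40plus Tregs (-3.20 ± 0.20 SE, adjusted p = 7.88e-10) and 6.3-fold in the OX40minus gate (-2.65 ± 0.20, adjusted p = 9.97e-09). Within the tumor it fell further in OX40plus (-0.86 ± 0.18, adjusted p = 0.00146), with an overlap at tumor OX40minus mouse 2. In spleens -0.31 ± 0.21 was not called (adjusted p = 0.563), and the interaction of -0.55 ± 0.28 was called only without tumor OX40minus mouse 2 (-0.79, adjusted p = 0.00775).

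Izumo1r (ENSMUSG00000031933, chromosome 9, 14885814 to 14903949, minus strand) averaged 310 ± 19.4 CPM in tumor OX40plus and 343 ± 35.1 in tumor OX40minus, with overlap and no call (-0.14 ± 0.12 SE, adjusted p = 0.396). In spleens it was at 1129, 938 and 1422 CPM in OX40plus, against 955, 728 and 727 CPM in OX40minus, and rose by 0.53 ± 0.14 (adjusted p = 0.0301). That call was lost with the 2 spleen groups alone (adjusted p = 0.0927), without the mean-variance trend (adjusted p = 0.0814), and without spleen OX40plus mouse 1 (adjusted p = 0.0833) or mouse 3 (adjusted p = 0.144) or spleen OX40minus mouse 2 (adjusted p = 0.147) or mouse 3 (adjusted p = 0.134). The interaction of -0.67 ± 0.19 (adjusted p = 0.0325) was lost without the trend (adjusted p = 0.076) and without each of 7 single samples (adjusted p = 0.0564 to 0.0957): tumor OX40plus mouse 3, tumor OX40minus mice 1 and 2, spleen OX40plus mice 1 and 3, and spleen OX40minus mice 2 and 3. Between tissues Izumo1r fell 3.7-fold in OX40plus (-1.89 ± 0.13, adjusted p = 4.29e-09) and 2.33-fold in OX40minus Tregs (-1.22 ± 0.13, adjusted p = 9.29e-07).

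The 2 genes face each other on chromosome 9 with 15024 bases and no annotated gene between them. Within 200 kb of the pair 6 other genes stood in the table, a window chosen after the values were seen, and none of the 5 of them that were tested was called lower in tumor Tregs. Panx1, of these 6 genes the nearest beyond Izumo1r, rose in tumor against spleen Tregs of both gates. Panx1 was at 127.5 against 105 CPM in OX40plus (0.28 ± 0.10 SE, adjusted p = 0.0192) and 158 against 108 CPM in OX40minus (0.55 ± 0.10, adjusted p = 0.000146). Mre11a, the nearest of the 6 on the other side, differed by 0.25 ± 0.14 in OX40plus (adjusted p = 0.133) and -0.07 ± 0.14 in OX40minus Tregs (adjusted p = 0.712). The list of folate receptors and carriers counts Izumo1r by its name, folate receptor 4. In that list 3 of 5 tested genes rose and 1 fell between the gates of tumor Tregs, where 38.5% of all genes were called. Slc19a1, the reduced folate carrier gene, rose to 69.5 ± 12.0 CPM in tumor OX40plus, against 34.4 ± 2.52 in tumor OX40minus (1.00 ± 0.12, adjusted p = 8.96e-06). Folr2, which macrophages also express, fell in tumor OX40plus (0.28 ± 0.29 against 4.05 ± 2.14 CPM in tumor OX40minus, adjusted p = 0.000522) along with the macrophage markers above.

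Capg rose most of the 10 genes in tumor against spleen Tregs. Capg (ENSMUSG00000056737, chromosome 6, 72544391 to 72562983, plus strand) was at 1626, 1693, 1585 and 1686 CPM in tumor OX40plus and 1602, 1571, 1567 and 1406 CPM in tumor OX40minus mice, against 585, 504 and 692 CPM in spleen OX40plus and 516, 423 and 369 CPM in spleen OX40minus. Tumor and spleen samples did not overlap, with a rise of 2.8-fold in OX40plus (1.48 ± 0.12 SE, adjusted p = 1.55e-08) and 3.55-fold in OX40minus Tregs (1.83 ± 0.12, adjusted p = 1.92e-09). Between the gates the difference was 0.10 ± 0.11 in tumors (adjusted p = 0.493). In spleens Capg rose in OX40plus by 0.45 ± 0.12 (adjusted p = 0.0359), a call lost when the mouse was a block in the fit (adjusted p = 0.0974), with the 2 spleen groups alone (adjusted p = 0.105), without the trend (adjusted p = 0.0819) and without spleen OX40plus mouse 1 (adjusted p = 0.104) or mouse 3 (adjusted p = 0.161) or spleen OX40minus mouse 2 (adjusted p = 0.128) or mouse 3 (adjusted p = 0.187).

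Of 15 tested genes of the gelsolin family and capping proteins, Capg included, 4 rose and 3 fell in tumor against spleen OX40plus Tregs, and 6 rose and 2 fell in OX40minus. Over all genes 64.5% and 59.0% were called in these comparisons, larger shares than in this list. Capza1 and Capza2, which encode alpha subunits of the capping protein dimer, rose in both (1.49 ± 0.08 and 1.91 ± 0.09 in OX40plus, 1.23 ± 0.08 and 1.58 ± 0.09 in OX40minus). Carmil2, a regulator of that dimer, fell in both (-1.96 ± 0.13 and -1.45 ± 0.13). Beside all differences between tissues stand the B cell markers, 6 in the table, which summed to 0.35 to 3.74 CPM in tumor OX40plus and 1.0 to 4.37 CPM in tumor OX40minus, against 354.6 to 522 CPM in spleen OX40plus and 361 to 495 CPM in spleen OX40minus samples. Melanoma markers summed to 69.3 to 184, 92.5 to 138, 12.6 to 14.9 and 20.5 to 22.4 CPM in these groups. Their part in the tissue differences was not tested.

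**Figure D5:**
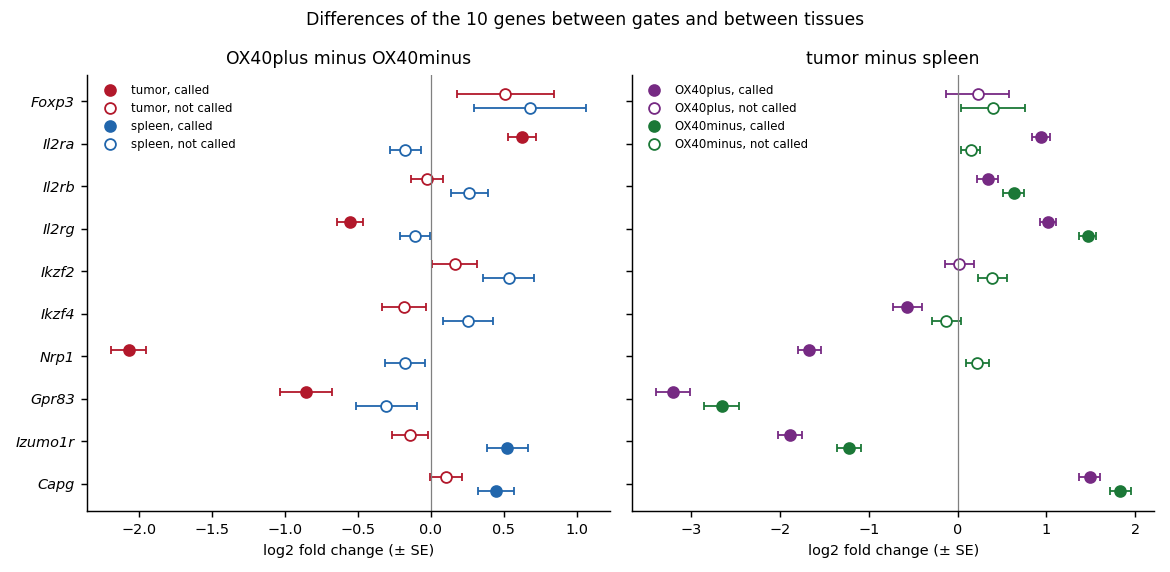
Log2 fold changes of the 10 genes (horizontal axes, with the SE as bars), OX40plus over OX40minus in each tissue on the left and tumor over spleen in each gate on the right; filled points were called. Nrp1 at -2.07 in tumors stands apart on the left, and Gpr83 at -3.20 and -2.65 on the right.

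The gate difference itself changed with tissue for 4 of the 10 genes, where 10.9% of all genes were called for this interaction. Il2ra rose, and Il2rg and Nrp1 fell, between the gates of tumor Tregs and were not called in spleens. Izumo1r rose between the gates of spleen Tregs and was not called in tumors. The calls of Il2ra and Nrp1 held under each alternative tried, and those of Il2rg and Izumo1r did not. For Foxp3 the interaction was -0.17 ± 0.51 SE (adjusted p = 0.878), an error that leaves differences of either direction possible.

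Of 16 other tested genes of the Treg signature, counted without Tnfrsf4, whose protein the sort used, 4 rose and 2 fell between the gates of tumor Tregs (median 0.15) and 8 rose and 2 fell in spleens (median 0.40). Over all genes 38.5% were called between the tumor gates, close to the share of this list, and 7.98% between the spleen gates. In tumor against spleen Tregs 11 rose and 2 fell in OX40plus, and 11 rose and 1 fell in OX40minus. The shares of all genes called there were 64.5% and 59.0%. Ctla4, the inhibitory receptor by which Tregs strip CD28 ligands, was at 4180 ± 214 CPM in tumor OX40plus and 841 ± 33.7 CPM in spleen OX40plus (2.31 ± 0.09 SE, adjusted p = 6.07e-12). Klrg1 (1.52 ± 0.13, adjusted p = 4.29e-06) and Icos (0.90 ± 0.10, adjusted p = 2.7e-05), receptors of effector Tregs, rose in spleen OX40plus. Socs2, whose gene is a target of STAT5, fell in tumor OX40plus (-1.19 ± 0.11, adjusted p = 1.31e-06) and in spleen OX40plus (-1.05 ± 0.13, adjusted p = 9.42e-05).

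Of 12 tested genes that are low in Tregs against conventional CD4 T cells, 2 rose and 8 fell in tumor OX40plus against tumor OX40minus (median -1.43), and 1 rose and 6 fell between the gates in spleens (median -0.76). All tested genes gave 38.5% and 7.98% called in these comparisons. Tcf7 was at 1.87 ± 1.04 CPM in tumor OX40plus and 30.5 ± 6.42 in tumor OX40minus (-4.19 ± 0.33 SE, adjusted p = 2.26e-07), and Lef1, a related factor of resting T cells, at 61.0 ± 6.40 and 128 ± 8.69 CPM (-1.08 ± 0.09, adjusted p = 2.74e-07). In tumor against spleen 2 rose and 9 fell in OX40plus, and 3 rose and 8 fell in OX40minus. Id2, an inhibitor of E proteins, went against the list, at 658 ± 89.8 CPM in tumor OX40plus and 54.3 ± 6.52 CPM in spleen OX40plus (3.60 ± 0.12, adjusted p = 7.59e-13).

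The genes whose log2 CPM was most like that of each member over the 14 samples were found among 8182 genes, as a description in which all points share libraries and group structure. For Foxp3 they were Cdk9 (Pearson r = 0.917), Cep85 (0.842), Mrps25 (0.819), Mpdu1 (0.804) and 0610010K14Rik (0.803). The chains matched Abce1 (Il2ra, 0.961), Gdpd5 (Il2rb, 0.972) and Hsd11b1 (Il2rg, 0.992) best. Nrp1 was most like Ccr4 (0.979), Gpr83 like Nsg2 (0.991), Izumo1r like Zfp219 (0.985) and Capg like Syngr2 (0.997). Ikzf2 had its highest value with Neb (0.836) and Ikzf4 with Ccdc157 (0.892).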

How the data were processed

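Sorted Tregs of 4 groups were profiled by RNA-seq. The submitters' processing notes name bcl2fastq 2.19, kallisto, limma and genome build mm10, and the sources used here do not give the gene summary, the scaling factor or the use of strand. The authors deposited log2 CPM values in the form limma's voom gives, with 0.5 added to each count, in a table named for counts. The lowest value of a library gave its effective size and so estimated counts, 46.6% to 51.2% of them whole within 0.01. A count model had been planned; because the values are log2, limma 3.58.1 in R 4.3.3 was used, with a moderated spread that follows the mean level. Its input was the mean of the 2 libraries per mouse and gate. All 14 samples were in 1 fit, with 1 term per group, no block, and Benjamini-Hochberg adjustment over all genes tested (a minimum of 0.382 CPM in 3 or more samples, and of 15 counts in all). CPM, their SD and ratios came from the estimated counts, with pandas 2.3.3 and scipy 1.17.1.

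The labels give the same mouse number to both gates, so numbers pair gates by animal; deviations of same-numbered samples correlated at -0.108 to 0.060 between tumor gates and -0.162 to 0.112 between spleen gates. Nothing states that a number marks the same animal in tumor and spleen. All members are named, and of each list up to 3 called genes with the smallest adjusted p in each comparison. The members and lists were chosen with earlier results of these data known. Annotation is GENCODE M21. Single values of some genes on these lists are not reported here.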

Additional observations from a re-analysis of the deposited data

Results flagged for a closer look

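For 4 genes the difference between the gates was not the same in tumors and spleens by the interaction term in limma: Il2ra (0.796 on the log2 scale, tumor difference minus spleen difference), Il2rg (-0.447), Nrp1 (-1.893) and Izumo1r (-0.667). Among the 20 sets of 4 tumor samples, 1 sample lay far from the other 3 in a pair of cases: Il2ra in tumor OX40minus mouse 2, at 884.39 CPM, and Capg in tumor OX40minus mouse 4, at 1406.21 CPM. Chance marks about 1 in 20 such sets. Without that mouse the Il2ra difference between tumor gates was still called.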

How the results depend on the processing

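Of 23 called differences of the 10 genes, 18 stayed called under every alternative and none changed sign; of 417 values, 37 were no longer called. Of 27 differences not called, 493 values held 10 that were called and 10 of opposite sign. Between spleen gates 2 genes were called, but 0 with the 2 groups alone, 1 (Izumo1r) with the replicate block, 0 without the mean-variance trend and 0 to 2 with each sample left out (0 without OX40plus mouse 1 or OX40minus mouse 2 or 3; without OX40plus mouse 3 both were lost and 1 other, Ikzf2, was called). The interaction was called for 4 genes, but 2 without the trend and 2 to 4 with each sample left out (Ikzf2 and Gpr83 were each called once); the replicate block gave 3. The block left the counts of the other comparisons at 4, 8 and 5. The sign turned, with no call, for Il2rb between tumor gates (0.090 without tumor OX40plus mouse 4, 0.002 without tumor OX40minus mouse 1, range -0.089 to 0.090), for Foxp3 in tumor against spleen OX40plus (-0.108 and -0.110 without spleen OX40plus mouse 1 or 2, range -0.110 to 0.889) and in the interaction (0.495 when spleen OX40plus mouse 3 was left out, 0.072 when spleen OX40minus mouse 2 was, range -0.505 to 0.495), and for Ikzf2 in tumor against spleen OX40plus (-0.043 with the replicate block, -0.082 with library size alone, -0.081 without tumor OX40plus mouse 4, -0.222 without spleen OX40plus mouse 3, range -0.222 to 0.160). The cause was not tested. With library size alone the median of all genes in that comparison was -0.233, against -0.132. With 3 or 4 mice a group, p-values measure the spread between these mice only.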
